A study of Homo sapiens with 8 samples.

Results

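The EGFR family and its ligands were followed through 8 genes in human renal carcinoma cells treated with an inhibitor of fatty acid desaturation. The genes were the ligands HBEGF, AREG, EREG and TGFA, the receptors EGFR, ERBB2 and ERBB3, and the receptor inhibitor ERRFI1. Members were all probe sets that the array's platform annotation gives to exactly 1 of these genes, under its current or a former symbol. That rule found 27 probe sets, out of 54613 on the array without controls, for 7 of the 8 genes. AREG had no probe set in the annotation used and was not analysed here. Of the 27 probe sets, 15 had a mean signal level above the minimum used for testing and 12 did not.

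The established lines ACHN, A498, CAKI1 and CAKI2, 4 in all and labelled as clear cell renal carcinoma, supplied the RNA. All were grown in DMEM with fetal bovine serum. Each line gave 1 array after 24 h in 75 nM A939572 and 1 array after DMSO, the solvent. A939572 blocks SCD1, the stearoyl-CoA desaturase that makes monounsaturated fatty acids. The 4 lines served as the replicates, 4 arrays against 4, and the labels name no separate cultures within a line. In such bulk RNA, fewer cells expressing a gene and less of its RNA per cell cannot be told apart.

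ERBB receptors are tyrosine kinases of the cell surface. Their ligands are made as membrane-bound precursors and are released by metalloproteases such as ADAM17 and ADAM10. A bound receptor pairs with another of the family and feeds the RAS-ERK and PI3K-AKT pathways. ERBB2 has no known ligand of its own, and ERBB3 signals mainly through its partners because its kinase activity is weak. ERRFI1, also called MIG6, binds and restrains the active receptor kinases. TGFA and EGFR are well known in clear cell renal carcinoma, where loss of VHL raises TGFA.

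The promoters of the ligands whose transcripts changed are shown first, as the 250 bases before the annotated start site (RefSeq, GRCh38.p14, each written 5′ to 3′ on the gene's strand). Capitals mark matches, on either strand, to TATAAA (the TATA box), CCAAT (the CAAT box), TGACG (the core of the cyclic AMP response element), TGANTCA (the AP-1 site), CACGTG (the E-box) and GGGCGG (the GC box). The full response element TGACGTCA, which contains that core, was searched as well.

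EREG, chr4:74364895-74365144, plus strand: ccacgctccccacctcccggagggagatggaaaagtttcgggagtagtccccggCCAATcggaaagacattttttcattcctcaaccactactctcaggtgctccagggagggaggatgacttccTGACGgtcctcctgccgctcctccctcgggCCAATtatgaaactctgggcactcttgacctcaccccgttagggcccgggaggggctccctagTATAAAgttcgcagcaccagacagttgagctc
HBEGF, chr5:140346604-140346853, minus strand: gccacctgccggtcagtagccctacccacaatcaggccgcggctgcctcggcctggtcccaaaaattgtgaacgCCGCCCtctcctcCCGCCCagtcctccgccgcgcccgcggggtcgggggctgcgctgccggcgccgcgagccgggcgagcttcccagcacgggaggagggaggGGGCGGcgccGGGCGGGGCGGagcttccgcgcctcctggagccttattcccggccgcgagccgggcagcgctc
TGFA, chr2:70553827-70554076, minus strand: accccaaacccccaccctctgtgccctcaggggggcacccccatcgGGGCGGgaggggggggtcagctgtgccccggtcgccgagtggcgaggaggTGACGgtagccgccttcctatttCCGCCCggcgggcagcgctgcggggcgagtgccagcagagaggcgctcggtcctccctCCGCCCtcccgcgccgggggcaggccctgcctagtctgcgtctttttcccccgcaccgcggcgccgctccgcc

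EREG has TATAAA from -32 to -27 relative to the start site, CCAAT at -196 and at -95, and TGACG at -125. TATAAA occurs in 10.7% of 35116 windows of this length, CCAAT in 32.0% and TGACG in 21.2%. HBEGF and TGFA showed no match to TATAAA or CCAAT in this window. HBEGF has 5 matches to GGGCGG, of which the last 2 overlap by a base, and TGFA has 3, against 42.6% of all windows with at least 1. TGFA also has TGACG at -154. GC content was 58.0% for EREG, equal to the median of all windows, 76.4% for HBEGF and 75.6% for TGFA. Neither TGANTCA (6.57% of windows), CACGTG (6.34%) nor TGACGTCA (1.65%) was found in any of the 3 windows. A second annotated start of TGFA, with the window chr2:70553447-70553696, held none of the 7 motifs.

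Levels are given as the deposited signals, in arbitrary units on a linear scale. Differences are A939572 minus DMSO on quantile-normalized log2(signal + 16), with the SD over the 4 lines. The offset understates changes of dim probe sets. Tests were made with limma, with the cell line as a block, and p-values were adjusted by Benjamini-Hochberg over all probe sets tested. Values near 69.2 units, the level of the minimum for testing, are close to the middle of all probe sets on the array.

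Array-wide, median signals lay between 68.6 and 84.2 units. Of 27307 probe sets tested, 26.0% passed the threshold of 0.05, 3545 higher and 3543 lower, or 4335 higher and 2841 lower with each array centred on its median. The ACTB control probe sets gave 3′ over 5′ ratios from 2.12 up to 2.33 without drug and from 3.02 up to 4.22 with it. This ratio differed with treatment in the same arrays as every result given here, and its part in them was not tested. GAPDH gave ratios of 0.962 to 1.05 and 1.01 to 1.11. Of the renal and epithelial markers, 8 of 10 lay above the minimum, with a summed signal of 25501 to 59588 in DMSO and 17671 to 49125 with the drug. PAX8, a renal lineage factor, had 4079 to 8278 units over the 8 arrays. Above the minimum were 1 of 6 leukocyte markers (ITGAM), 1 of 5 endothelial markers (PECAM1) and 2 of 7 fibroblast markers (COL1A1 and THY1). Their summed signals were 214 to 501 and 271 to 700, 181 to 545 and 216 to 362, and 267 to 4091 and 230 to 1125, in DMSO and drug respectively.

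Among the members, HBEGF rose in its 2 tested probe sets and EREG in 1 of its 2. TGFA and ERBB3 each fell in 1 of their 3 tested probe sets, while EGFR, ERBB2 and ERRFI1 did not pass the test. With the mean of a gene's probe sets in limma, HBEGF, EREG and TGFA did not pass (adjusted p = 0.367, 0.0749 and 0.185). In probe sets, 3 of 15 were higher and 2 lower, against 13.0% of all tested probe sets in each direction. That is 5 of 15 called, beside 26.0% in general. The median difference of the 15 was 0.27, and that of all tested probe sets was -0.01. In genes, each read from its brightest probe set, 2 of 7 were higher and 1 lower, where 30.6% of 12093 genes passed.

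**Figure D1:**
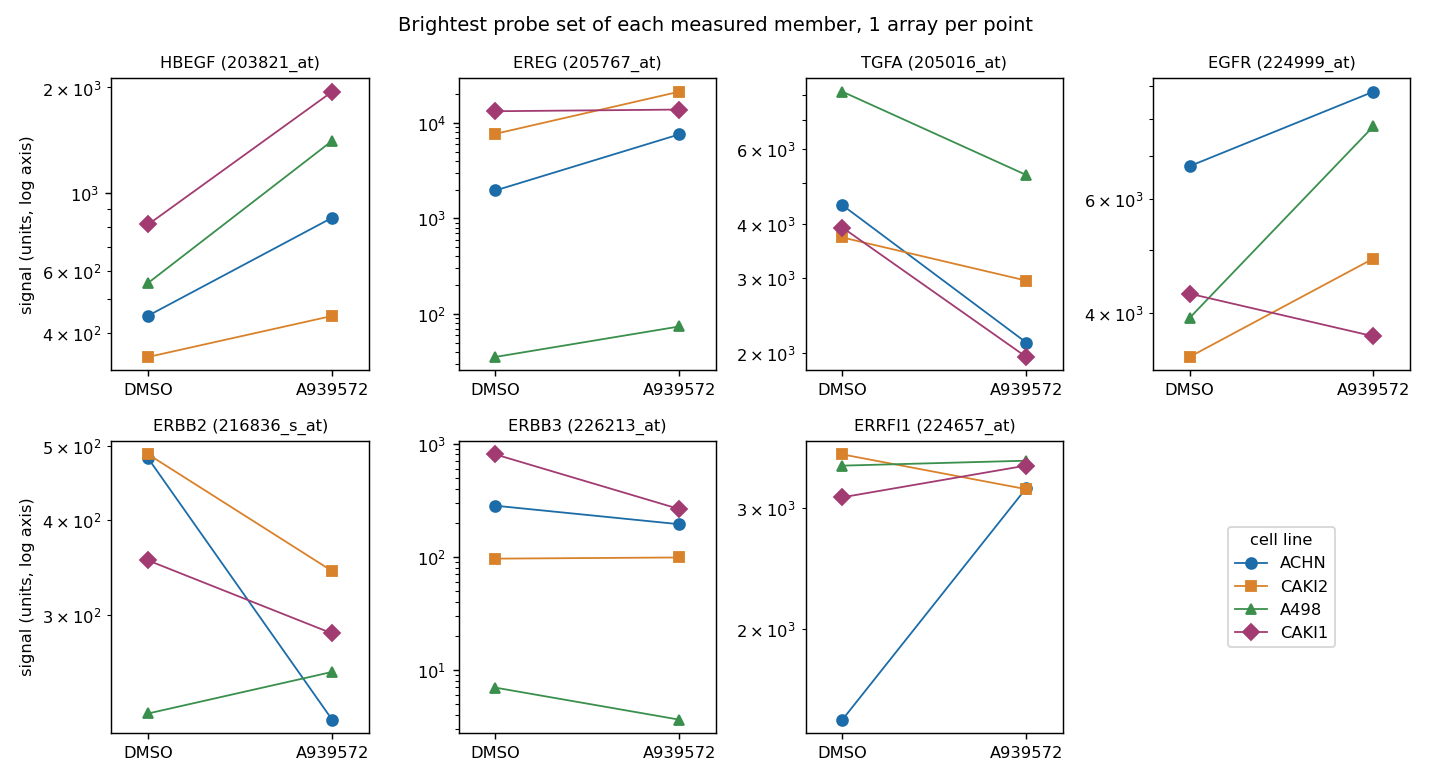
Signal (log axis, units) of the brightest probe set of each of the 7 measured genes, with 1 point per array and a line joining DMSO to A939572 within each cell line. HBEGF and EREG are higher and TGFA lower with the drug in all 4 lines, and EREG in A498 lies at 35.6 and 74.2 units while the other lines are at 1958 or above.

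HBEGF encodes heparin-binding EGF-like growth factor, a ligand of EGFR and ERBB4. Its brightest probe set (203821_at) read 448 units in DMSO and 851 with the drug in ACHN. In CAKI2 it went from 341 to 447, in A498 from 555 to 1409 and in CAKI1 from 814 to 1945. Every line was higher with the drug, although the groups overlapped, since the treated CAKI2 array lay below the DMSO arrays of ACHN, A498 and CAKI1. The log2 difference was 0.94 ± 0.41 (SD, n = 4 lines), or 1.93-fold, with limma adjusted p = 0.00409. By line it was 2.49-fold in A498, 2.27-fold in CAKI1, 1.87-fold in ACHN and 1.30-fold in CAKI2.

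The other bright HBEGF probe set (38037_at) gave the same order of levels, with CAKI1 highest and CAKI2 lowest. Its signals went from 223 to 571 in ACHN, 139 to 148 in CAKI2, 226 to 885 in A498 and 464 to 992 in CAKI1. The log2 difference was 1.11 ± 0.77 (adjusted p = 0.0122), and without A498 it was 0.83 (adjusted p = 0.0508). CAKI2 moved least in both probe sets, by log2 differences of 0.38 and 0.10. The 2 dim probe sets of HBEGF read 3.24 to 86.3 units and differed by -0.39 and -0.24 on average. With the mean of all 4 probe sets in place of the brightest, HBEGF had 0.36 (adjusted p = 0.367), a value that includes the dim ones.

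EREG encodes epiregulin, a ligand of EGFR and ERBB4 with low receptor affinity and long-lasting activity. In its brightest probe set (205767_at) ACHN went from 1958 to 7552 units and CAKI2 from 7652 to 21099.7. CAKI1 stayed between 13187 in DMSO and 13725.5 with the drug. A498 read 35.6 in DMSO and 74.2 with the drug, the former below the level used as a minimum. The log2 difference was 1.13 ± 0.85, or 2.20-fold (adjusted p = 0.0107), higher in 4 of 4 lines but very uneven. By line it was 3.87-fold in ACHN, 3.08-fold in CAKI2, 1.90-fold in A498 and 1.03-fold in CAKI1, whose DMSO level was the highest of the 4. Without CAKI2 the log2 difference was 0.97 and did not pass (adjusted p = 0.0526).

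The second EREG probe set (1569583_at) did not pass, with 0.43 ± 0.97 and a 95% interval of -0.26 to 1.13 (adjusted p = 0.341). It rose from 96.3 to 337 units in ACHN and from 622 to 949 in CAKI2. In A498 it went from 78.8 to 43.3 and in CAKI1 from 614 to 606. Both probe sets had ACHN and CAKI2 as the lines with the largest increases, and they differed in sign in A498, where the signal was dim. With the mean of both, EREG had 0.78 (adjusted p = 0.0749).

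TGFA encodes transforming growth factor alpha, the ligand most similar to EGF in its use of EGFR. Its brightest probe set (205016_at) read 4431 units in DMSO and 2116 with the drug in ACHN, and 3724 and 2953 in CAKI2. In A498 the signals were 8158 and 5212, and in CAKI1 3928 and 1958. All 4 lines were lower with the drug, and the groups overlapped because treated A498 stayed above the DMSO arrays of the other lines. The log2 difference was -0.75 ± 0.36 (adjusted p = 0.00485), a fall of 1.68-fold on average. By line TGFA was 2.14-fold lower in ACHN, 1.97-fold in CAKI1, 1.51-fold in A498 and 1.25-fold in CAKI2.

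The other TGFA probe sets, both dimmer, did not pass. In 211258_s_at the difference was -0.42 ± 0.64 (95% interval -0.94 to 0.11, adjusted p = 0.226), with -1.29 in ACHN, -0.48 in CAKI2 and 0.01 and 0.10 in A498 and CAKI1. In 205015_s_at it was -0.02 ± 1.33 (95% interval -0.96 to 0.91, adjusted p = 0.974), where CAKI2 rose from 17.1 to 109 units and the other lines were lower. That value changed sign with each array centred on its median (0.04). With the mean of the 3 probe sets TGFA had -0.40 (adjusted p = 0.185). Across the ligands, CAKI2 was the line with the smallest change in the brightest probe sets of HBEGF and TGFA but not in that of EREG, in which CAKI1 changed least.

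**Figure D2:**
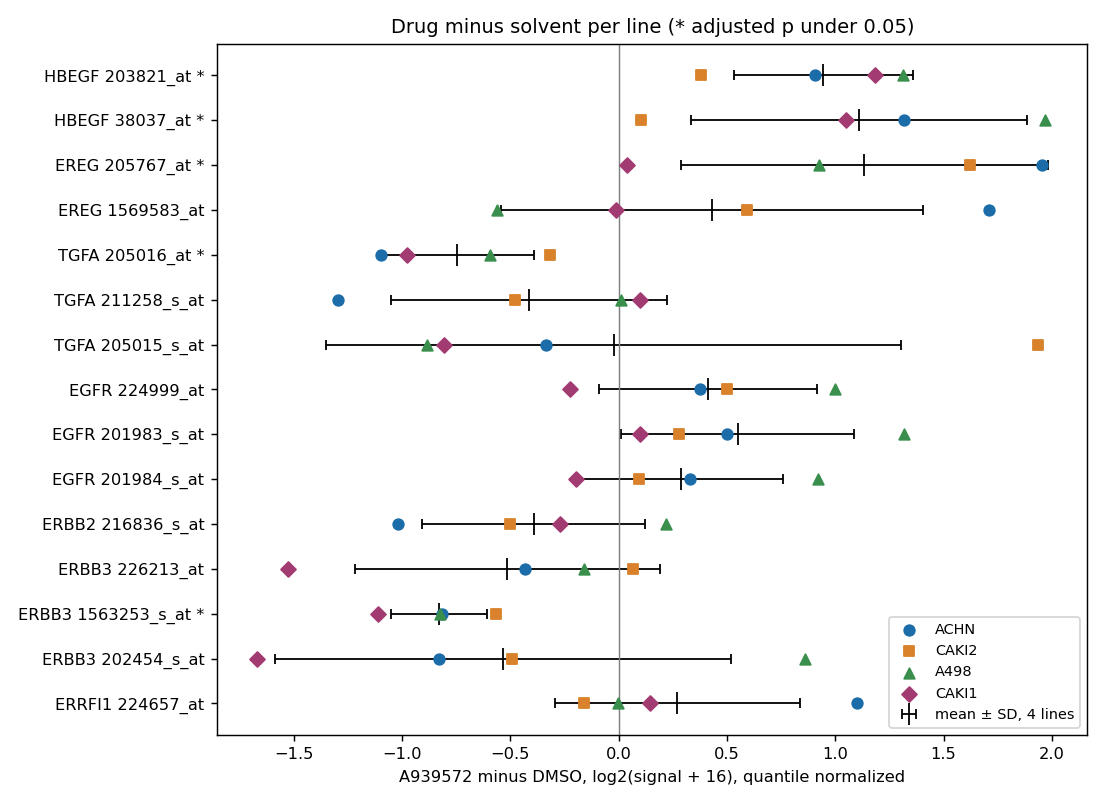
Log2 difference, A939572 minus DMSO, for the 15 tested probe sets of the members, with 1 symbol per cell line and the mean ± SD over the 4 lines as a bar. An asterisk marks the 5 probe sets with adjusted p under 0.05, and the symbols of HBEGF lie to the right of 0 and those of TGFA 205016_at to the left in all lines.

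EGFR, the receptor of all the ligands above, had 3 bright probe sets and none passed. The brightest (224999_at) went from 6749 to 8805 units in ACHN, 3417 to 4854 in CAKI2, 3926 to 7781 in A498 and 4283 to 3679 in CAKI1. A498 changed most, ACHN and CAKI2 were 1.30-fold and 1.41-fold higher, and CAKI1 was lower. The log2 difference was 0.41 ± 0.50 (adjusted p = 0.103), with a 95% interval of 0.03 to 0.79 before adjustment for the number of probe sets. The others gave 0.55 ± 0.54 in 201983_s_at (adjusted p = 0.0598) and 0.29 ± 0.47 in 201984_s_at (adjusted p = 0.27). All 3 placed A498 highest in difference, at 1.00, 1.32 and 0.92, and CAKI1 lowest, at -0.22, 0.10 and -0.20.

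Single lines moved the EGFR values. Without A498 the differences were 0.22, 0.29 and 0.08 in the order above (adjusted p = 0.386, 0.235 and 0.793). Without CAKI1, 224999_at had 0.63 (adjusted p = 0.0189) and 201983_s_at 0.69 (adjusted p = 0.0434). With all lines kept, the latter also passed with each array centred on its median (0.65, adjusted p = 0.0345), with no normalization between arrays (0.56, 0.0491) and with only probe sets above the 75th percentile tested (0.55, 0.045). The remaining 6 EGFR probe sets read 4.39 to 114 units, and their mean differences ran from -0.61 to 0.47.

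ERBB2 had 1 tested probe set (216836_s_at). Its signal fell from 481 to 219 units in ACHN, from 487 to 343 in CAKI2 and from 354 to 284 in CAKI1, and went from 223 to 252 in A498. The difference was -0.39 ± 0.51 (95% interval -0.86 to 0.07, adjusted p = 0.194), lower in 3 of 4 lines and not past the threshold. ACHN had the largest difference, -1.02. The 2 dim probe sets read 2.82 to 98.6 units.

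ERBB3, the receptor for neuregulins, gave readings that differed between its probe sets. The brightest (226213_at) fell from 802 to 263 units in CAKI1 and from 282 to 193 in ACHN. It read 95.9 and 98.3 in CAKI2 and only 6.94 and 3.61 in A498. Its mean difference, -0.51 ± 0.71, did not pass (95% interval -1.16 to 0.13, adjusted p = 0.221), since the size came from CAKI1 at -1.53. In 202454_s_at CAKI1 again moved most, from 316 to 86.5 units (-1.67), followed by ACHN with 180 and 87.4 (-0.83). CAKI2 had 62.9 and 37.6 there, and A498 went the other way, from 20.4 to 45.8 units. Its mean difference was -0.53 ± 1.05 (95% interval -1.39 to 0.32, adjusted p = 0.341).

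The third, 1563253_s_at, was lower in all 4 lines, with a difference of -0.83 ± 0.22 (adjusted p = 0.0334). Signals were 114, 115, 153 and 126 units in DMSO and 52.1, 69.2, 73.9 and 50.3 with the drug in ACHN, CAKI2, A498 and CAKI1. The groups did not overlap, which held for 8.90% of all tested probe sets. A498 lay level with the other lines in it, whereas it was the lowest line in the other two. The difference stayed between -0.91 and -0.74 with any 1 line left out. The call was lost each time, with adjusted p = 0.0847 without ACHN, 0.0596 without CAKI2, 0.0936 without A498 and 0.104 without CAKI1. It was lost too with no filter on dim probe sets, at the same difference (0.0998).

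**Figure D3:**
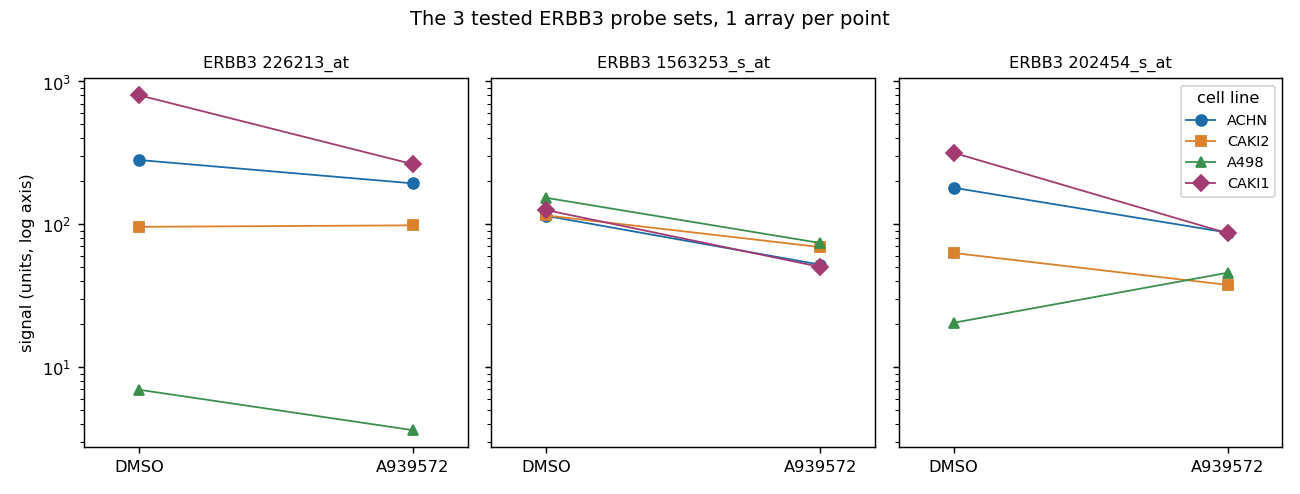
Signal (log axis, units) of the 3 tested ERBB3 probe sets, with 1 point per array and lines joining DMSO to A939572 within each cell line. In the left and right panels CAKI1 starts highest and drops most, whereas in the middle panel the 4 lines lie together, at 114 to 153 units in DMSO and 50.3 to 73.9 with the drug.

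ERRFI1 had a single probe set (224657_at), and its response came from 1 line. ACHN went from 1479 to 3208 units, a 2.14-fold rise. CAKI2 had 3590.2 and 3196, A498 had 3458 and 3515, and CAKI1 had 3110.4 and 3459. The difference was 0.27 ± 0.57 (95% interval -0.15 to 0.70, adjusted p = 0.326), and -0.01 without ACHN. The 4 treated arrays had an SD of 0.07 on the log2 scale, against 0.61 in DMSO, because only the DMSO array of ACHN stood below the rest.

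The lines also differed in their levels of the members, taken over both arrays of a line. In an F-test over the lines in limma, with both arrays of a line as its replicates after a common treatment effect, 11 of 15 probe sets passed, beside 54.0% of all tested probe sets. Single pairs of lines passed in 28.1% of all contrasts. EREG had the widest range. CAKI2 and CAKI1 did not differ from each other in 205767_at (log2 difference 0.06, adjusted p = 0.928), CAKI1 was above ACHN by 1.75 (0.00637) and ACHN above A498 by 5.91 (5.00e-06). The ends differed by 7.71 on the log2(signal + 16) scale, a size that the offset and the dim signals of A498 limit. The other EREG probe set had the same order. Without normalization between arrays, with median centring and in the DMSO arrays alone, CAKI1 came before CAKI2 in 205767_at.

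ERBB3 in 226213_at ran from CAKI1 over ACHN and CAKI2 to A498. The ends differed by 4.58 on the log2(signal + 16) scale, and no fold is given because both A498 signals were smaller than the offset. Of the neighbours only CAKI2 and A498 differed (2.43, adjusted p = 0.00204), while CAKI1 against ACHN gave 0.98 (0.103) and ACHN against CAKI2 gave 1.18 (0.0566). The order was the same in 202454_s_at, and no difference between lines passed in 1563253_s_at (F-test adjusted p = 0.883). A498, lowest in both EREG and ERBB3, was highest in TGFA (205016_at), above CAKI2 by 0.99 (adjusted p = 0.0059), ACHN by 1.11 (0.00321) and CAKI1 by 1.27 (0.00154). Those 3 lines did not differ from each other in TGFA beyond their spread (0.332 to 0.692).

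HBEGF in 203821_at was highest in CAKI1 and lowest in CAKI2, a gap of 1.69 (adjusted p = 0.00096). No step between neighbours, from CAKI1 to A498, ACHN and CAKI2, passed (0.0804 to 0.172). EGFR in 224999_at was highest in ACHN, which exceeded CAKI2 by 0.93 (0.0175) and CAKI1 by 1.00 (0.0126). Its neighbours in the order ACHN, A498, CAKI2 and CAKI1 did not differ beyond their spread, and CAKI2 came last with median centring. In the DMSO arrays alone CAKI1 was second and CAKI2 last in 224999_at, and A498 was last in the other EGFR probe sets. In 201984_s_at CAKI2 came first, and that difference between lines did not pass with median centring (F-test adjusted p = 0.0563). ERBB2 and ERRFI1 did not differ between the lines past the threshold (F-test adjusted p = 0.154 and 0.123).

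Genes with the most similar pattern were taken as those with the highest Pearson correlation to a member's brightest probe set over the 8 arrays, as a description. The 8 arrays share 4 lines and 1 drug, so such correlations are easily high. For TGFA the first was ADAM10 (r = 0.976), followed by KIF3C (0.973) and HAUS6 (0.973). For HBEGF they were CEP350 (0.973), BBX (0.970) and RFC1 (0.963), and for EREG MIF4GD (0.994), ZNF493 (0.989) and MTMR11 (0.984). For EGFR they were TRA2A (0.975), BCL10 (0.964) and FBXW7 (0.964), and for ERBB2 RABL6 (0.960), SUV39H2 (0.957) and NUB1 (0.942). ERBB3 had FBN1 (0.988), YES1 (0.982) and NIPAL2 (0.980), and ERRFI1 had SPDEF (0.969), SEL1L3 (0.956) and LEMD2 (0.943).

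Among the remaining ligands, of 4 tested, 1 rose and 0 fell, also at an unadjusted p under 0.05. Of all genes, 14.7% rose and 15.9% fell past the adjusted threshold. BTC, which encodes betacellulin, rose by 0.66 ± 0.28 (adjusted p = 0.0122), higher in 4 of 4 lines, from 163 to 331 units in A498 and from 841 to 1344 in ACHN. Its other probe set had 0.25 ± 0.35 (adjusted p = 0.421), and its call was lost without A498 (0.0506) and with the mean of both (0.0615). EGF had 0.11 ± 0.07 (adjusted p = 0.647), with 70.1 units at the lowest in ACHN and 952 at the highest in CAKI2. NRG1, a ligand of ERBB3, had 0.03 ± 0.29 in its brightest probe set (adjusted p = 0.894) but 1.19 ± 0.55 in another, 206237_s_at (adjusted p = 0.00333). NRG2 had -0.57 ± 0.46 (adjusted p = 0.123). NRG3 (1.44 to 233 units), NRG4 (1.48 to 30.9) and the receptor ERBB4 (3.54 to 87.8) lay below the minimum on average and were not tested. EPGN was not analysed here.

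Of the proteases that release the ligands, ADAM17 rose and ADAM10 fell. ADAM17, which sheds TGFA, HBEGF and EREG, rose by 0.92 ± 0.49 (adjusted p = 0.0038), and its 2 other probe sets gave 1.00 ± 0.27 and 0.91 ± 0.25. Its signal went from 3367 to 9349 units in ACHN, 3128 to 3869 in CAKI2, 3757 to 6849 in A498 and 2692 to 5507 in CAKI1. ADAM10, which sheds EGF and BTC, fell by 0.54 ± 0.27 on the log2 scale (adjusted p = 0.00836), and its others had -0.72 ± 0.50 and -0.54 ± 0.35, all 3 past the threshold. Its signals were 9364, 7663, 13360.4 and 8541 in DMSO and 4981, 6296, 9112 and 5790.3 with the drug, in the same order of lines. ADAM19 had -1.08 ± 0.79 (adjusted p = 0.029), lower in 3 of 4 lines, and its call was lost without ACHN, A498 or CAKI1 (0.0959 to 0.118) and with no filter (0.0612). Of the 9 sheddases and cofactors tested, 1 rose and 2 fell, beside 14.7% and 15.9% of all genes, and their median was -0.18. The other 6 did not pass, among them the brightest, ADAM9 (0.003 ± 0.19, adjusted p = 0.984). ADAM12 had 0.61 ± 0.62 (adjusted p = 0.0654), but -0.85 ± 0.21 in a dimmer probe set, 204943_at (0.0432).

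Of 13 genes listed as ubiquitin ligases and negative regulators of the receptors, 6 rose and 0 fell (1 at an unadjusted p under 0.05), each read from its brightest probe set. Of all genes 14.7% rose and 15.9% fell, and the medians were 0.38 for the list and -0.03 for all genes. The list includes USP8, a deubiquitinase, which did not pass (adjusted p = 0.143). CBL and SOCS5 were among the 6, but none of their other tested probe sets passed (adjusted p = 0.465 to 0.994). SH3KBP1 was not called, but fell in another probe set (1554168_a_at, -0.46 ± 0.33, adjusted p = 0.0431). LRIG2 rose by 0.74 ± 0.28 (adjusted p = 0.00858), the ERBB3 ubiquitin ligase RNF41 by 0.55 ± 0.17 (0.0228) and the phosphatase PTPN2 by 0.47 ± 0.32 (0.037). Whether each listed gene, LRIG2 among them, restrains the receptors in these cells was not tested. LRIG2 and PTPN2 lost their calls with the mean of their probe sets (0.301 and 0.375). RNF41 did so without ACHN, A498 or CAKI1 (0.0531 to 0.0893) and with no filter (0.0531). PTPN2 did so without ACHN (0.12) or CAKI2 (0.143) and without the variance trend (0.0732). Of 12 adaptors and docking proteins, beside the same shares of all genes, 1 rose and 0 fell, also at an unadjusted p under 0.05 for falls. That 1 was GAB2, a docking protein for PI3K and SHP2, at 0.98 ± 0.55 (adjusted p = 0.00764), and the median was 0.11. SOS1 had -0.14 ± 0.28 in its brightest probe set, but passed at 0.64 ± 0.27 in 212780_at (adjusted p = 0.0128) and 0.74 ± 0.14 in 212777_at (0.0119). Its probe set 230337_at did not pass (0.11 ± 0.22).

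Downstream, 1 of 6 genes of the RAS-ERK cascade rose and 1 fell (median 0.01), beside 14.7% and 15.9% of all genes. MAP2K1, which encodes the kinase MEK1, rose by 0.49 ± 0.29 (adjusted p = 0.0249) and HRAS fell by 0.61 ± 0.23 (adjusted p = 0.0126). MAP2K1 lost its call without ACHN, A498 or CAKI1 (0.0632 to 0.106) or the variance trend (0.0575), and HRAS without CAKI2 (0.0533). In the PI3K-AKT, PLC and STAT arm 1 of 11 rose and 3 fell (median -0.20), beside the same shares of all genes. SRC rose by 0.94 ± 0.77 (adjusted p = 0.0255), while its dimmer probe set read -0.23 ± 0.42. Without ACHN, which went from 31.4 to 172 units, SRC had 0.56 (0.0476). Its call was lost without A498 (0.0553), with no filter (0.0513) and without the variance trend (0.0561). AKT2 fell by 0.79 ± 0.31 (0.00793) in its brightest and had 0.11 ± 0.59 in the next, and with the mean of all its probe sets it had -0.13 (adjusted p = 0.685). PIK3CB fell by 0.52 ± 0.12 (0.0101), or -0.39 (0.0512) with the mean of its probe sets.

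Among 15 transcripts that ERK activity induces or that feed back on it, 6 rose and 0 fell in limma, beside 14.7% and 15.9% of all genes. None fell at an unadjusted p under 0.05 either, and the median was 0.41. PHLDA1 (1.16 ± 0.80, adjusted p = 0.00686), the ERK phosphatase DUSP5 (1.12 ± 0.61, 0.00349) and the feedback regulator SPRY2 (1.07 ± 0.12, 0.000682) had the largest changes. Without ACHN PHLDA1 had 0.76 (0.00329). SPRY2 was the most even, with the same direction in 4 of 4 lines. Of PHLDA1, 3 of its 6 tested probe sets passed. The other 9 genes of the list did not pass, among them DUSP6 (0.01 ± 1.07, adjusted p = 0.988), SPRY4 (0.06 ± 0.83, 0.910) and EGR1 (-0.17 ± 0.88, 0.722). The lines differed in sign, with DUSP6 from -1.03 in ACHN to 1.36 in A498 and EGR1 from -1.03 in CAKI1 to 0.96 in A498. Of 7 reference genes, each read from its brightest probe set, 0 rose and 0 fell in limma. At an unadjusted p under 0.05 they were 0 and 2, SDHA at -0.43 ± 0.37 and PPIA at -0.20 ± 0.05. Both passed with only probe sets above the 75th percentile tested (0.0493 and 0.0274), and SDHA passed without CAKI1 (-0.54, 0.0452). Dimmer probe sets passed for PGK1 (227068_at, -0.58 ± 0.24, adjusted p = 0.00682), YWHAZ (200639_s_at, -0.42 ± 0.19, 0.0157) and B2M (232311_at, 0.94 ± 0.64, 0.0156). The rest of the reference probe sets tested did not pass. Of the 8 renal and epithelial markers tested 1 rose, beside 14.7% of all genes, PAX8 by 0.38 ± 0.19 (adjusted p = 0.0294). Another 2 fell, beside 15.9% of all genes, the cadherin CDH6 (-1.52 ± 1.25, 0.0197) and the keratin KRT19 (-0.97 ± 0.84, 0.0214). CDH6 had -0.95 (0.0852) without A498 and lost its call without CAKI2 as well (0.0584). PAX8 lost its call without ACHN (0.131), CAKI2 (0.0700), A498 (0.0805) or the variance trend (0.0811), and KRT19 without A498 (0.065), without the trend (0.063) or with the mean of its probe sets (0.181). Without CAKI1 KRT19 had -0.59 (0.0495). COL1A1, on the fibroblast list, had -1.04 ± 0.36 (adjusted p = 0.00318), or -0.42 (0.161) with the mean of its probe sets. THY1, the other fibroblast marker tested, had -0.99 ± 1.80 and did not pass (adjusted p = 0.224). It went from 3200 to 348 units in ACHN and was higher with the drug in 1 line, CAKI1. ITGAM (0.23 ± 0.48) and PECAM1 (-0.21 ± 0.20) did not pass.

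**Figure D4:**
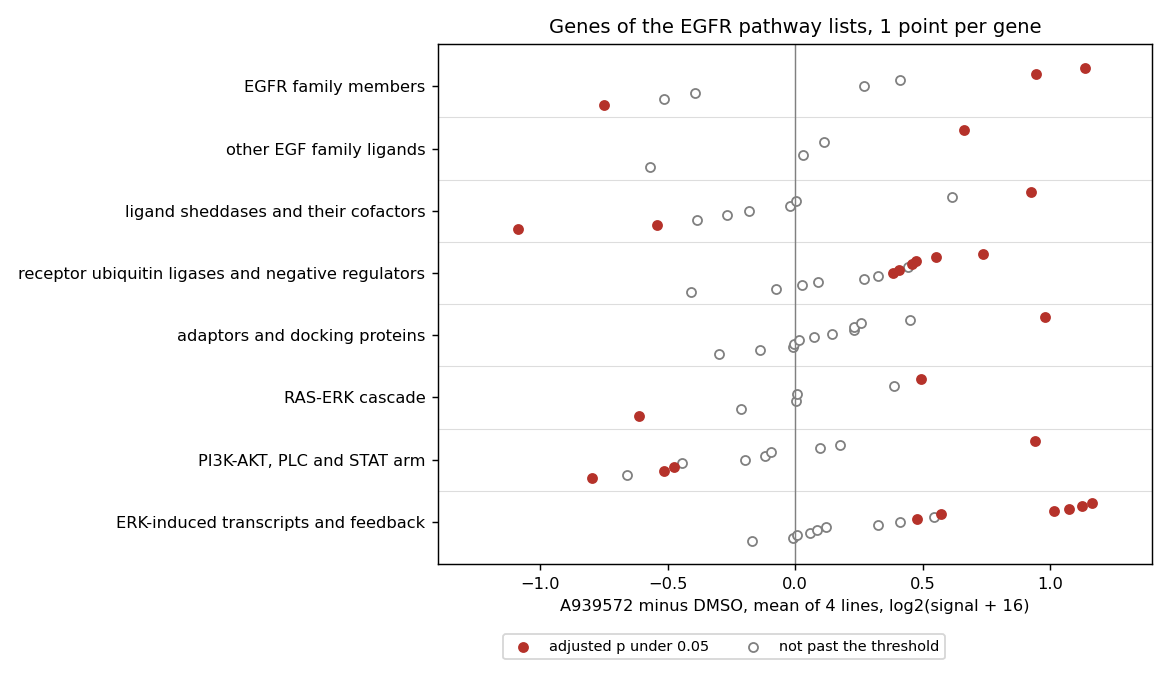
Mean log2 difference over the 4 lines, A939572 minus DMSO, for each tested gene of the EGFR family and of 7 lists of pathway genes, with filled points for adjusted p under 0.05. Filled points of the ubiquitin ligases and negative regulators (6 of 13) and the ERK-induced transcripts (6 of 15) lie to the right of 0. The sheddases have filled points on both sides.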

How the data were processed

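The table deposited by the authors holds intensity signals on a linear scale, 1 per probe set and array, for 8 arrays and 54675 probe sets. The program that made them is not given in the sources used here. Per the labels' protocols, total RNA was transcribed into biotin-labelled cRNA. All arrays shared a 2% trimmed mean of 500.067 to 500.073, so the authors had scaled them to a common level.

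Signals were taken as log2(signal + 16) and quantile normalized without 62 control probe sets. Of the rest, 41091 had 1 gene symbol, 1801 several and 11721 none. Symbols were updated through the Entrez ID (41037 matched) to a table of GRCh38.p14, used for names and RefSeq promoters. Probe sets with a mean at or above the median of 6.41 (69.2 units) were tested with limma 3.58.1 in R 4.3.3 (lmFit, eBayes with trend, 2-sided), with the line as a block. The labels give the pairing. Deviations from the group means correlated at 0.775 to 0.828 between arrays of a line and at most -0.028 otherwise. Subtracting the group means pushes the correlations between different lines below 0, so these add little to the same-line values. For lists, the brightest probe set over all arrays stood for a gene, and per-gene p-values were adjusted over 12093 genes. For the members, p-values are per probe set, save with the mean of probe sets. Line contrasts were adjusted over all probe sets and 6 pairs. P-values rest on the spread between lines after limma pooled it with that of other probe sets of similar level. They therefore do not measure the printed SD alone. For EREG 205767_at the SD over the lines was 0.85, and the standard error that limma used was 0.26. An exact test on 4 pairs cannot go below 0.125. The number of arrays limits the precision. The fit was tested on simulated data.

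The members and lists were chosen with earlier results of these data known. Named genes were all members and other ligands, and, per list, at most 3 called genes by size of change or, where none was called, at most 2 by p. Some further list genes were named to show the limits of the counts. List genes without a probe set of 1 symbol were not analysed here. Alternatives were other scalings, offsets of 1 and 64, no filter or the 75th percentile, no block, no trend, the mean of probe sets, no probe sets ending in _x_at or _s_at, and each line left out.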

Additional observations from a re-analysis of the deposited data

How the results depend on the processing

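Without the cell line as a block, limma called 56 probe sets higher and 38 lower and, per gene, 38 higher and 29 lower, and 0 of the 15 member probe sets in either direction. For the paired design this setting leaves the differences between lines in the error. With no filter or with only probe sets above the 75th percentile tested, 1 member probe set was lower in place of 2, which is the ERBB3 call. Leaving out a line gave 2 to 5 member probe sets higher and 1 lower, 5 without CAKI1. Over all probe sets it gave 2383 to 2881 higher and 2368 to 2832 lower, and per gene 1252 to 1511 higher and 1411 to 1571 lower. In the other settings the counts stayed within 1.5 times.

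Of the values that changed sign, AKT2 was the one called in the report. The TGFA probe set 205015_s_at had 0.0421 with median centring, 0.10 at offset 1 and 0.082, 0.26 and 0.24 without ACHN, A498 or CAKI1. ERRFI1 had -0.0051 without ACHN, and NRG1 -0.0747 and -0.0063 without A498 or CAKI1. Leaving out probe sets ending in _x_at or _s_at, AKT2 had 0.11 and ITGAM -0.0275. These are the values of other probe sets, 226156_at for AKT2 and 205785_at for ITGAM, which then stood for the genes. The cause of the other sign changes was not tested.

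Signal over background limits EREG and the ERBB3 probe sets 226213_at and 202454_s_at in A498, whose readings lay near or below the minimum used for testing. The called ERBB3 probe set 1563253_s_at was dim in all lines with the drug, at 50.3 to 73.9 units beside the minimum of 69.2.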
